A study of Mus musculus with 24 samples.

Results

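A set of 4242 regions of liver chromatin was open in A/J mice on every diet and in C57BL/6J mice on none, by the deposited peak lists. Peaks of the 6 lists on chromosomes 1 to 19 were merged where they shared at least 1 bp, which gave 49364 regions. The members had a peak in all 3 A/J lists and in none of the 3 C57BL/6J lists, and are called A/J-only regions here. They were 8.59% of all merged regions and 14.8% of the 28711 regions open in all 3 A/J lists (95% exact binomial interval 14.4 to 15.2). The regions were thus chosen by presence and absence of a peak in these lists, which follow from the measured signal. Their signal, rank and width are therefore described without a test.

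Livers of A/J and C57BL/6J mice, a pair of inbred strains, were profiled by FAIRE-seq. The A/J and C57BL/6J groups each ate one of 3 regimens: 8 weeks of a high fat diet followed by 8 weeks of control diet (Reversal), 16 weeks of the high fat diet (HF), or 16 weeks of control diet (Control). Each strain and diet had 2 FAIRE libraries, 12 in all, and 1 deposited peak list, so that no difference between lists has a replicate check and no p-value is given. Age, sex and any pooling of animals are not stated in the labels, and neither is the depth of a library. For Reversal, one label names 16 weeks of control diet instead, and the regimen in the treatment protocol was followed. Positions are in mm9, an assembly of the C57BL/6J genome and the only build in the submitters' processing notes. A difference in chromatin between the strains and a difference in how A/J reads map to that build cannot be told apart in these lists.

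FAIRE recovers DNA that is poorly crosslinked to nucleosomes, and so marks promoters, enhancers and other sites where nucleosomes are displaced. In liver such sites are bound by factors of hepatocyte identity, such as HNF4A and members of the C/EBP and FOXA families, and by factors that follow the diet, such as the fatty acid receptor PPAR alpha. Sequence variants that differ between inbred strains are known to change factor binding at single sites, and A/J mice are known as more resistant than C57BL/6J mice to obesity on a high fat diet. The whole organ was profiled, so that fewer cells with an open site and a less open site in each cell cannot be told apart. No gene annotation or genome of mm9 was at hand, so that genes and sequences at the regions, and markers of liver cells, were not analysed here.

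The A/J-only regions were a part of a larger set. Any A/J list, and no C57BL/6J list, had a peak in 10989 regions, of which the members were 38.6% (37.7 to 39.5). The next most frequent combination was Reversal and Control without HF, with 2441 regions, while HF and Control without Reversal had 443 and Reversal and HF without Control had 263. Regions seen in Control alone numbered 1841, those in Reversal alone 1288 and those in HF alone 471. The reverse set, open in all 3 C57BL/6J lists and in no A/J list, held 3012 regions, 11.9% (11.5 to 12.3) of the 25381 regions open in all 3 C57BL/6J lists.

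A/J-only regions were weak. Strength was read as a percentile, with 100 the strongest, among the same 28711 regions in each A/J list, so that each list ranked the same regions. The median member lay at the 20.1 percentile on Reversal (quartiles 9.91 and 32.4), at 13.4 on HF (5.94 and 23.9) and at 17.4 on Control (8.27 and 29.4). Regions open in all 6 lists, 20381 in number, had medians of 63.7, 64.3 and 64.0. An intermediate class of 4088 regions, open in all 3 A/J lists and in 1 or 2 C57BL/6J lists, had medians of 30.7, 25.1 and 30.3 on Reversal, HF and Control. In the authors' own signal values, whose scale is not given, the median of the members was 0.213 on Reversal, 0.141 on HF and 0.204 on Control, against lowest listed values of 0.125, 0.107 and 0.119 in these lists. The C57BL/6J lists reached down to 0.0965, 0.085 and 0.0849 and held 32727, 33371 and 35465 peaks on Reversal, HF and Control. Whether the scale is alike between lists is not stated.

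**Figure D1:**
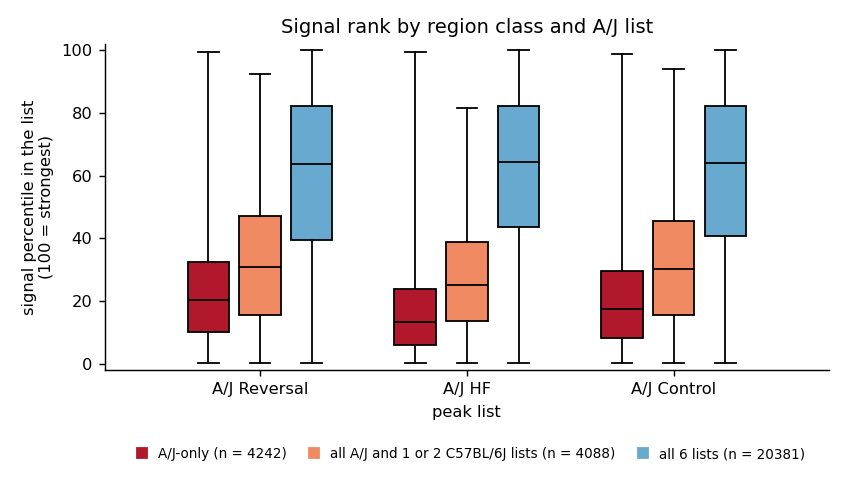
Signal percentile (vertical axis, 100 is the strongest) in the A/J Reversal, HF and Control lists for A/J-only regions, for regions open in all A/J and in 1 or 2 C57BL/6J lists, and for regions open in all 6 lists; boxes give quartiles and median, whiskers the lowest and highest region. The A/J-only medians of 20.1, 13.4 and 17.4 lie below those of both other classes in each list.

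The share of A/J-only regions was lower in each stronger bin of A/J signal. Of the 2155 regions with a mean percentile up to 10, 1080 were A/J-only, a share of 50.1% (48.0 to 52.2). The share was 40.7% from 10 to 20, 28.3% from 20 to 30, 16.8% from 30 to 40 and 8.61% from 40 to 50. It was 2.57% from 50 to 60, and above 70 the bins held 8, 4 and 2 members, the last of them 0.0715% of 2796 regions. In all 3 lists at once, 61 members (1.44%) lay in the upper 50% of A/J regions and 491 (11.6%) in the lowest 10%, against 44.6% and 3.26% of all regions open in the 3 A/J lists. Both limits were chosen after the values were seen.

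**Figure D2:**
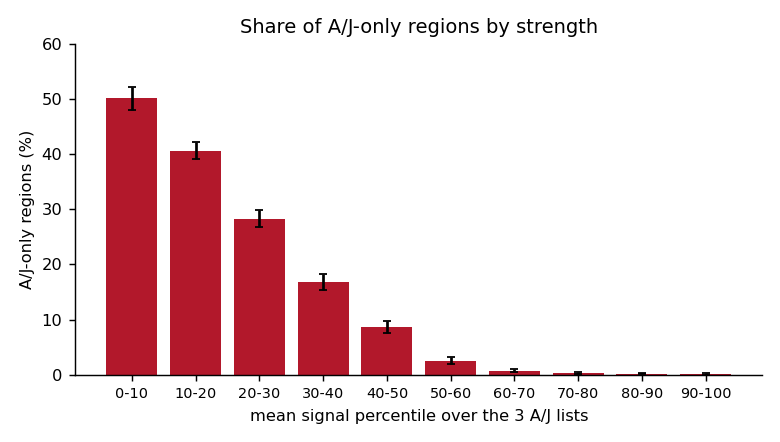
Share of A/J-only regions (vertical axis, percent) among regions open in all 3 A/J lists, in bins of their mean signal percentile (horizontal axis); error bars are 95% exact binomial intervals, which cover counting error only. The share is 50.1% in the weakest bin and 0.0715% in the strongest.

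A few members were among the strongest A/J sites. The strongest, on chromosome 6 from 146803325 to 146804155, reached signals of 2.81 on Reversal, 2.37 on HF and 2.64 on Control, which is the 99.4, 99.4 and 98.8 percentile. It stood high in all 3 lists, its 3 summits lay within 3 bp of one another, and the nearest C57BL/6J peak of any list was 13439 bp away. Next was a region on chromosome 12 from 29379055 to 29379539, with signals of 1.64 on Reversal, 1.47 on HF and 1.45 on Control and a mean percentile of 90.3. Its nearest C57BL/6J peak was 3151 bp away.

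The third, on chromosome 5 from 117534972 to 117536162, was 1191 bp wide and had signals of 1.48 on Reversal, 1.13 on HF and 1.54 on Control. The fourth lay on chromosome 15 from 36885029 to 36885742, with 1.36 on Reversal, 0.926 on HF and 1.48 on Control. The region on chromosome 3 from 137875363 to 137875794 had 1.33, 0.855 and 1.48 on Reversal, HF and Control, and that on chromosome 10 from 21147807 to 21148255 had 1.22, 1.13 and 1.24. These last 4 regions had mean percentiles between 84.2 and 87.9, and none had a C57BL/6J peak within 5 kb: the nearest were 8233, 15967, 13100 and 5884 bp away, in the order of the 4 regions above. In 3 of the 4 the percentile was lower on HF than on Reversal and Control, and on chromosome 10 it was higher on HF, at 86.2 against 84.0 on Reversal and 82.3 on Control.

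At the other end, the members with the lowest percentile in any list were at the very foot of that list. A region on chromosome 13 from 37780876 to 37781522 held the lowest signal of the Control list, 0.119, with 0.175 on Reversal and 0.129 on HF. One on chromosome 10 from 79276755 to 79277516 had the lowest HF signal, 0.107, with 0.209 on Reversal and 0.193 on Control. On chromosome 11 the region from 94201620 to 94201896 also stood at 0.107 on HF, with 0.167 on Reversal and 0.201 on Control.

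Just outside the rule stood regions that shared a few bases with a C57BL/6J peak. The A/J region on chromosome 16 from 18433626 to 18434546 shared 1 bp with a peak of the C57BL/6J Reversal list, and had A/J signals of 0.282 on Reversal, 0.156 on HF and 0.298 on Control. On chromosome 17 from 24429405 to 24429986 the overlap was 4 bp, with peaks of the C57BL/6J HF and Control lists, and the A/J signals were 0.215 on Reversal, 0.133 on HF and 0.179 on Control. On chromosome 7 from 108763457 to 108764264 it was 14 bp with the same lists, and the A/J signals were 0.310, 0.143 and 0.187 on Reversal, HF and Control. Of all regions open in all 3 A/J lists and kept out by a C57BL/6J peak, 4 shared 50 bp or less with it.

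A/J-only regions were narrow. Their median width was 362 bp (quartiles 305 and 485), against 441 bp in the intermediate class and 803 bp in regions open in all 6 lists. C57BL/6J-only regions were narrow too, with a median of 343 bp, and were also weak in their own strain, with median percentiles of 12.4 on Reversal, 16.1 on HF and 24.9 on Control among the regions open in all 3 C57BL/6J lists. A width of up to 500 bp was found in 76.8% of members, 60.7% of the intermediate class and 23.0% of regions open in all 6 lists. Single peaks were also narrow, with medians of 331 bp on Reversal, 301 bp on HF and 340 bp on Control within the members. In the intermediate class they were 384, 357 and 398 bp, and in regions open in all 6 lists 663, 672 and 728 bp. By strength, the median width of members was 325.5 bp up to the 10 percentile, 343 bp from 10 to 20 and 433 bp from 40 to 50. In regions open in all 6 lists it was 526, 496 and 597 bp in these bins, with the lowest value, 487 bp, from 20 to 30. A merged region widens with each list that adds a peak, and a wide region can meet a C57BL/6J peak more easily, so that width is bound to the rule.

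The widest member lay on chromosome 19 from 4057395 to 4059765, at 2371 bp, with signals of 0.356 on Reversal, 0.191 on HF and 0.230 on Control. It was followed by one of 2275 bp on chromosome 11 from 60013117 to 60015391, with 0.204, 0.149 and 0.226 on Reversal, HF and Control. The third, of 2056 bp on chromosome 7 from 20256928 to 20258983, was both wide and weak, at 0.132, 0.111 and 0.140, a mean percentile of 1.88. Of the 4242 members, 89 were wider than 1000 bp.

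Within a member, the peaks of the 3 diets lay at nearly one place. The summits of the Reversal and Control peaks lay a median of 7 bp apart, as did those of HF and Control and those of Reversal and HF, and between 97.2% and 97.4% of members had a pair of summits within 50 bp. In regions open in all 6 lists the medians were between 5 and 7 bp and the shares between 96.2% and 97.2%. Position of the summit was not part of the rule beyond the overlap it asks for. A single peak per list was found in 99.5% of members on Reversal, 99.5% on HF and 99.8% on Control.

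Between diets, members stood lowest on HF. The HF percentile was the lowest of the 3 in 52.2% of members, the Control percentile in 28.6% and the Reversal percentile in 19.3%, while the Reversal percentile was the highest in 46.2%. The intermediate class had a like order, with HF lowest in 55.3%. In regions open in all 6 lists HF was lowest in 31.7% and highest in 48.9%. The A/J HF list was also the shortest of the A/J lists, with 33963 peaks against 35332 on Reversal and 36410 on Control. With all 6 lists cut to the 32727 peaks of the shortest, the medians were 19.2 on Reversal, 12.5 on HF and 15.8 on Control. Whether list length bears on the order of the diets was not tested. Ranked among all peaks of a list instead, the medians of the members were 31.8 on Reversal, 20.6 on HF and 32.0 on Control, so that Reversal no longer stood above Control.

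Counted past a limit of 20 percentile points, 337 members (7.94%) were lower on HF than on Control and 85 (2.00%) were higher, with a median difference of -3.31 points. Over all 28711 regions open in the A/J lists 3.07% were lower and 3.03% higher, with a median difference of 0.20. In the intermediate class 8.93% were lower and 2.01% higher. Reversal minus Control gave 157 members higher (3.70%) and 47 lower (1.11%), beside 0.982% and 0.484% of all regions, and a median of 1.85 points. Reversal minus HF, which shares its lists with the other comparisons, gave 488 higher (11.5%) and 60 lower (1.41%), beside 3.58% and 3.55% of all regions, and a median of 5.25 points. The intermediate class had 1.69% higher and 0.660% lower for Reversal minus Control, and 9.44% and 1.98% for Reversal minus HF. At least 20 points below both Reversal and Control on HF were 175 members (4.13%), against 1.54% of all regions. At least 20 points above both on HF were 26 members (0.613%), against 2.01% of all regions. Members span a narrower range of percentiles than regions open in all 6 lists, which bears on any correlation within them. Spearman's rho across the 4242 members, which share their 3 lists, was 0.73 between Reversal and Control, 0.58 between Reversal and HF and 0.56 between HF and Control, against 0.99, 0.96 and 0.96 across the 20381 regions open in all 6 lists. Across the intermediate class rho was 0.90, 0.78 and 0.76 in the same order.

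**Figure D3:**
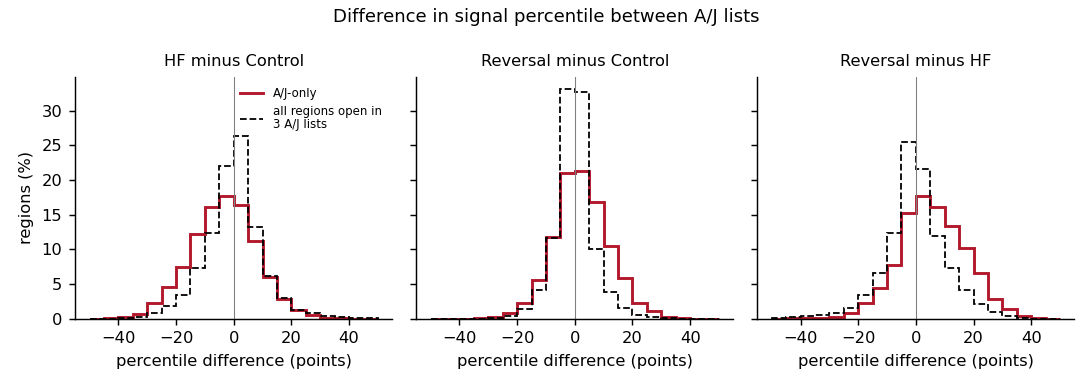
Difference in signal percentile between A/J lists (horizontal axes, points) for A/J-only regions (solid) and for all regions open in the 3 A/J lists (dashed), as percent of each set (vertical axis). The median of the members is -3.31 points for HF minus Control, 1.85 for Reversal minus Control and 5.25 for Reversal minus HF.

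Single members differed far more between diets, chosen here for that difference among those outside chromosome 18. Low in a list a small change in signal moves the percentile far. On HF a signal of 0.110 was the 1.38 percentile and 0.160 the 20.8 percentile. The region on chromosome 7 from 146745625 to 146746009 stood at a signal of 0.111 on HF, near the foot of that list, against 0.433 on Control, and 0.310 on Reversal. Its percentile was 1.49 on HF against 49.6 on Control. Regions on chromosome 2 from 170339286 to 170339618 and on chromosome 7 from 88834039 to 88834675 had the same shape, at 6.89 and 1.53 on HF against 47.1 and 41.6 on Control, with 35.5 and 29.9 on Reversal. In each of these 3 regions the Reversal percentile lay between the other lists.

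The opposite shape was found on chromosome 5 from 15196056 to 15196690, with a percentile of 43.2 on HF against 3.87 on Control, and 7.58 on Reversal. On chromosome 9 from 53109414 to 53109711 the values were 42.3 on HF against 3.34 on Control, and 14.6 on Reversal, and a peak of the C57BL/6J Control list lay 227 bp away. The third, on chromosome 13 from 105532964 to 105533285, stood at 48.4 on HF against 12.3 on Control, with 33.3 on Reversal, and was far from C57BL/6J peaks, the nearest being 73430 bp away.

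Highest on Reversal against Control was a region on chromosome 16 from 18339949 to 18340381, with signals of 0.366 on Reversal, 0.126 on HF and 0.129 on Control, a percentile of 44.2 on Reversal against 1.02 on Control. Those on chromosome 11 from 109683628 to 109683985 and from 80597769 to 80598076 had 45.9 and 41.2 on Reversal against 6.69 and 4.45 on Control. Their signals were 0.382 and 0.339 on Reversal against 0.160 and 0.150 on Control. The first of the 2 was also among the largest differences between Reversal and HF, since its HF percentile was 1.38. Reversal was lowest against Control on chromosome 4 from 78159041 to 78159407, at 1.34 against 34.3, on chromosome 1 from 173347631 to 173348836, at 9.87 against 40.4, and on chromosome 11 from 52070866 to 52071312, at 7.02 against 35.5. The chromosome 1 region had C57BL/6J peaks 62 bp away on Reversal and 49 bp away on HF.

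Between Reversal and HF the largest positive differences were on chromosome 5 from 123332566 to 123333059, at 51.3 on Reversal against 1.56 on HF, and on chromosome 8 from 126791136 to 126791549, at 51.3 against 6.43. Both had a Control percentile between those values, 32.9 and 40.4. Negative differences were largest on chromosome 2 from 166501109 to 166501700, at 1.45 on Reversal against 44.4 on HF, on chromosome 9 from 77568594 to 77569105, at 9.53 against 50.9, and on chromosome 6 from 136765178 to 136765578, at 2.60 against 39.8.

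A/J-only regions lay nearer to chromatin open in both strains than C57BL/6J-only regions did, but not nearer than the intermediate class. The nearest region open in all 6 lists was a median of 11262 bp away, and 47.6% of members had one within 10000 bp. In the intermediate class the median was 8781.5 bp, with 53.0% within 10000 bp and 6.53% beyond 100000 bp. For C57BL/6J-only regions that median was 56554 bp and the share 22.3%, while 41.7% of them, against 8.89% of A/J-only regions, lay more than 100000 bp from any region open in all 6 lists. A C57BL/6J peak of some list lay within 100 bp of 58 members (1.37%), within 1000 bp of 807 (19.02%) and within 10000 bp of 2615 (61.6%). None was found within 100 kb of 132 members (3.11%).

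Along the chromosomes, A/J-only regions tended to be next to one another over short distances. The next region open in all 3 A/J lists was also A/J-only after 846 of 4241 members (19.9%, 18.8 to 21.2), against 13.9% after other regions. The share was 17.9% at 3 steps and 15.2% at 20 steps, a median distance of 800 kb, against 14.8% of all regions. By distance it was 26.4% (22.6 to 30.5) where the next region began within 1 kb and 23.98% from 1 to 5 kb, against 15.3% and 15.4% after other regions. It was 18.3% from 5 to 20 kb, 18.2% from 20 to 100 kb and 15.9% beyond 100 kb, against 13.4%, 13.3% and 13.2%. The intermediate class had 16.1% against 13.9% at 1 step, and C57BL/6J-only regions 24.5% against 10.2% among the regions open in all 3 C57BL/6J lists. These intervals reflect counting error alone, and regions next to each other are not independent.

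**Figure D4:**
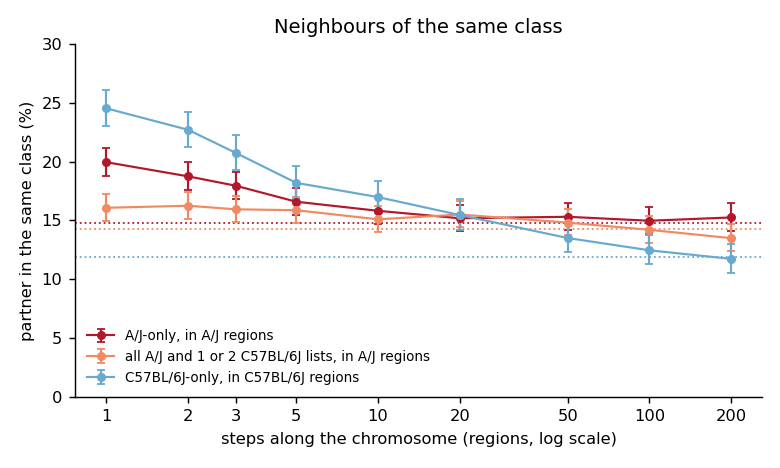
Share of regions whose partner a number of steps further along the chromosome (horizontal axis, log scale) is of the same class (vertical axis, percent), for A/J-only, intermediate and C57BL/6J-only regions; error bars are 95% exact binomial intervals and dotted lines the overall share of each class. A/J-only regions stand at 19.9% at 1 step and 15.2% at 20 steps, with an overall share of 14.8%.

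Runs of members up to 50 kb apart numbered 2884. Of these, 2113 held a single member, 49.8% of all members, and 62 held 5 or more, with 375 members in all (8.84%). Runs were not counted in other classes, so that clustering beyond the density of A/J regions cannot be read from these counts. The longest, on chromosome 7 from 106248006 to 106398472, spanned 150 kb and held 15 members among 28 regions open in all 3 A/J lists, with 9 open in all 6 lists and no C57BL/6J-only region. The A/J lists had 38, 31 and 39 peaks there on Reversal, HF and Control, and the C57BL/6J lists 15, 14 and 11. Here and in the runs below, the span was chosen for its members, each with a peak in every A/J list and in no C57BL/6J list. The excess of A/J peaks and the share of members in a span are thus bound to that choice. Members of this run had mean percentiles between 2.90 and 53.7, and their median was 16.7 on Reversal, 21.7 on HF and 20.02 on Control.

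On chromosome 17 a run of 12 members from 30686886 to 30794881 made up 63.2% of the 19 A/J regions in its span, with 20, 28 and 26 A/J peaks against 7, 7 and 4 C57BL/6J peaks on Reversal, HF and Control. Its median percentile was 22.7 on HF against 8.01 on Control, and 11.3 on Reversal, so that it stood highest on HF, as did the run on chromosome 7 and unlike the members at large. A second run on chromosome 17, from 15126944 to 15206489, held 10 members among 16 A/J regions and was also highest on HF, at a median of 34.7 against 22.8 on Control, and 20.02 on Reversal. Other runs of 10 lay on chromosome 19 from 3996532 to 4134699, where they were 34.5% of 29 A/J regions and included the widest member, and on chromosome 6 from 90633953 to 90739848, where they were 52.6% of 19. Both were lowest on HF, with medians of 22.5 on Reversal, 19.5 on HF and 21.3 on Control on chromosome 19, and of 28.5, 10.4 and 22.4 on chromosome 6.

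By windows of 1 Mb, members were found in 1255 of the 2015 windows with an A/J region. At least 5 members lay in 320 windows, which held 55.7% of all members and 43.8% of the regions open in all 3 A/J lists. Windows chosen for many members favour the first share by that choice, so that this difference is no measure of clustering. The count of members per window went with the count of regions open in all 6 lists (Spearman's rho 0.73 over 2328 windows). The fullest were on chromosome 7 from 106 to 107 Mb with 19 members of 48 A/J regions, chromosome 12 from 113 to 114 Mb with 18 of 66, chromosome 2 from 27 to 28 Mb with 18 of 69, chromosome 6 from 90 to 91 Mb with 17 of 65 and chromosome 1 from 193 to 194 Mb with 16 of 55. C57BL/6J-only regions in these 5 windows were 3 of 26, 2 of 44, 3 of 41, 1 of 35 and 3 of 36 C57BL/6J regions, in that order. The share over all regions open in all 3 C57BL/6J lists was 11.9%. Over the 804 windows with at least 10 regions open in all lists of each strain, the share of A/J-only regions ranged between 0% and 56.2% with a median of 13.3%, and hardly followed the share of C57BL/6J-only regions (rho 0.06).

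Per chromosome the share of A/J-only among A/J regions varied less, between 12.2% (10.5 to 14.1) on chromosome 15 and 18.8% (16.9 to 20.8) on chromosome 6, with a median of 14.8% over 19 chromosomes. Chromosome 12 followed at 17.1% (14.9 to 19.4). By number, chromosome 4 had most members, 340, and chromosome 18 fewest, 108. C57BL/6J-only shares ranged between 7.72% on chromosome 11 and 17.7% on chromosome 1, and across the 19 chromosomes they went with those of A/J-only regions (rho 0.64, a description of 19 points that share their lists).

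The C57BL/6J lists skip more peak numbers in gaps that hold an A/J peak, whether an A/J-only region or another one, than in gaps that hold none. Each peak name carries a serial number that rises along its chromosome in all peaks of all 6 lists. The C57BL/6J lists hold 18.6%, 20.4% and 14.5% of their numbers on Reversal, HF and Control, and the A/J lists 30.4%, 22.5% and 26.4%. No label or header says what the missing numbers stand for. Long gaps hold more numbers than short ones, so that gaps of like length were set side by side. In gaps of 2 to 10 kb between listed peaks of the C57BL/6J Reversal list, no number was missing in 3.31% of 484 gaps with an A/J-only region, in 4.40% of 932 gaps with another A/J peak and no A/J-only region, and in 34.7% of 5217 gaps with no A/J peak inside. In the HF list the shares were 0.426% of 470, 3.12% of 963 and 39.03% of 5155 gaps, and in the Control list 4.02% of 398, 4.44% of 968 and 31.7% of 4981. Missing numbers per 100 kb were 61.0, 60.5 and 66.02 on Reversal, HF and Control in gaps with an A/J-only region, 58.2, 55.9 and 61.3 with another A/J peak, and 30.3, 25.9 and 35.5 with none.

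From 10 to 50 kb, 0.998%, 1.38% and 1.15% of gaps with an A/J-only region had no missing number on Reversal, HF and Control, against 2.02%, 1.72% and 1.69% of those with another A/J peak and 18.8%, 22.4% and 15.1% of those with none. Most of the contrast therefore lay between gaps with and without any A/J peak, and it was not particular to A/J-only regions. Where in a gap a missing number lay cannot be read from the names. For 4159 members (98.0%) a number was missing in the gap around them in each C57BL/6J list. The gaps around members were long, with medians of 48675, 49650 and 52759 bp on Reversal, HF and Control. In the next length class, from 50 kb, no number was missing in 7.20%, 8.59% and 2.62% of gaps with no A/J peak. The 98.0% and the counts by strength below were not set against gaps of like length, and are not read as a trait of members. Among the 106 members with a mean percentile of at least 50, none was missing around 1 on Reversal, 3 on HF and 1 on Control. Among the 1080 below 10, none was missing around 13, 9 and 15. Only 1 member, on chromosome 4 from 118031755 to 118032055, had no missing number around it in any of the 3 C57BL/6J lists. It had A/J signals of 0.233 on Reversal, 0.163 on HF and 0.242 on Control, with listed C57BL/6J peaks 335, 311 and 329 bp away.

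**Figure D5:**
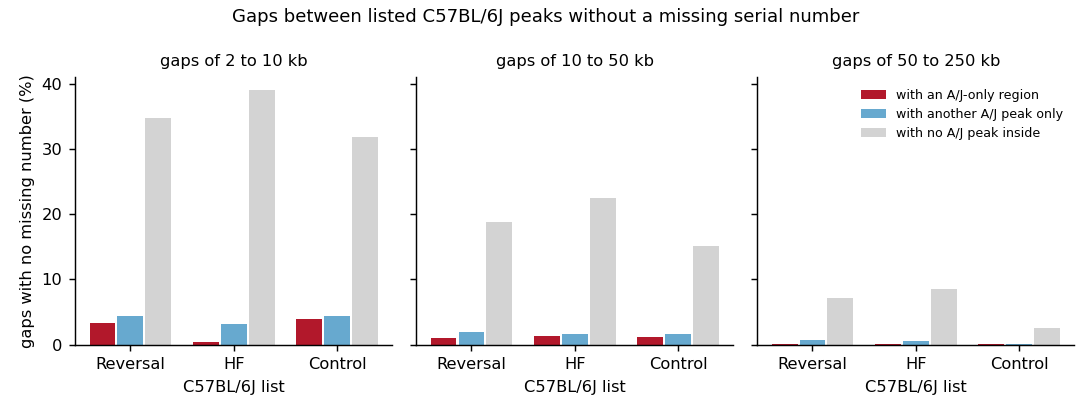
Share of gaps between neighbouring listed C57BL/6J peaks in which no serial number is missing (vertical axes, percent), by length of the gap and by C57BL/6J list, for gaps with an A/J-only region, gaps with another A/J peak only, and gaps with no A/J peak inside. In gaps of 2 to 10 kb the shares are 3.31%, 0.426% and 4.02% with an A/J-only region on Reversal, HF and Control, 4.40%, 3.12% and 4.44% with another A/J peak, and 34.7%, 39.03% and 31.7% with none.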

How the data were processed

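FAIRE-seq of liver was deposited by the authors as 1 peak list per strain and diet, and the 2 expression tables were not used here. The signal per peak is the value the authors deposited, whose scale no source states, and serves to rank peaks within a list. Bowtie2, TopHat and DESeq2 were used and the build was mm9, per the submitters' processing notes, which give neither their versions nor their roles. The peak caller, its threshold and any pooling of libraries are not given in the sources used here. Strain and diet of a list are known from its name.

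Peaks were merged where they shared at least 1 bp, and a region took the highest signal of its peaks in each list. Percentiles were taken among the regions open in all 3 lists of a strain. Work was done in Python 3.11.15 with pandas 2.3.3, numpy 2.4.6 and scipy 1.17.1, with exact binomial intervals of 95%, and the merging and classes were tested on simulated peaks. No test was run, because the contrast chose the members and there was 1 list per group.

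Named regions followed a rule: the 6 with the highest mean percentile, the 3 widest, the 3 largest differences of each sign for each pair of diets, the 3 with the lowest percentile in any list, the 3 outside with fewest shared bases, the 3 longest runs with ties, and the 5 fullest windows. Regions on chromosome 18 were counted and not named. The member without missing numbers was named after its values were seen, as was the tally of missing numbers. The members and the rules were chosen with earlier results of these data known.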

Additional observations from a re-analysis of the deposited data

How the results depend on the processing

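No paired analysis was possible because each strain and diet has 1 list, in which libraries are not told apart, and leaving out single libraries was not possible for the same reason. Among alternative values of the main results, 57 moved beyond the interval or 1.5 times the count and 30 did not. Some settings, such as the limits of 10 and 30 points, change the quantity itself, and the intervals cover counting error only. This tally is therefore no measure of robustness. Diet differences of the named regions were recomputed only with the width-weighted mean signal. Each region named for such a difference has a single peak per A/J list, which leaves its signal as it was. That setting therefore could not check the sign of these differences. The number of A/J-only regions changed most with how much of each list was kept. With the strongest 50% of every list 1500 were found (9.92% of A/J regions), of which 10.5% were among the 4242. With the strongest 50% of the A/J lists alone there were 158 (1.05%). Left out in turn, both HF lists gave 7693 regions (24.1%), both Reversal lists a share of 18.3% and both Control lists one of 16.4%. The share was 13.7% with peaks up to 500 bp apart merged, 18.4% where a C57BL/6J list counted from 50% of the A/J-covered bases, 11.96% with no C57BL/6J peak within 1000 bp and 13.5% with every list at the length of the shortest, and chromosome X added 34 regions of 462.

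Median percentiles on Reversal, HF and Control were 19.01, 12.7 and 16.2 with merging at 500 bp, 23.7, 16.7 and 20.8 with the 50% overlap, 19.2, 12.5 and 15.8 at equal length, 18.3, 8.96 and 16.0 with the strongest 50% of every list, 14.8, 9.70 and 12.8 with that of the A/J lists alone, and 31.8, 20.6 and 32.0 among all peaks of a list, where Reversal no longer stood above Control. Median widths were 410 bp with the 50% overlap, 357 bp with no C57BL/6J peak within 1000 bp, 370 bp at equal length, 513.5 bp with the strongest 50% of every list, 476 bp with that of the A/J lists alone and 358 bp for the widest A/J peak. The share whose next region was A/J-only was 17.9% with merging at 500 bp, 24.5% with the 50% overlap, 18.6% at equal length, 15.3% and 5.73% with the strongest 50% of every list and of the A/J lists alone, and 21.2% within 50 kb. After other regions these shares were 13.0%, 17.0%, 12.7%, 9.34%, 0.997% and 14.1%.

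With a limit of 10 points, members higher and lower numbered 460 and 1168 for HF minus Control (10.8% and 27.5%, against 12.2% and 13.9% of all regions), 850 and 382 for Reversal minus Control (20.04% and 9.01%, against 6.35% and 6.02%) and 1487 and 350 for Reversal minus HF (35.1% and 8.25%, against 14.98% and 13.5%). With 30 points they numbered 10 and 44 (0.236% and 1.04%, against 0.930% and 0.404%), 11 and 2 (0.259% and 0.0471%, against 0.146% and 0.0174%), and 81 and 13 (1.91% and 0.306%, against 0.509% and 1.11%). Members stood low in each list, so that their shares and those of all regions are not on equal terms at any of these limits. Runs of 5 or more numbered 22 at up to 20 kb and 133 at up to 100 kb, and rich windows 211 at 500 kb. Depth of sequencing was not given, so that a missing peak is read as not listed. The cause of these differences was not tested.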
